A study of Mus musculus with 18 samples.

Results

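The genes described here mark contractile, fibroblastic and perivascular cells of the skin stroma. They were chosen by symbol, namely Acta2, Tagln, Cnn1, Myh11, Fap, Pdgfra, Pdgfrb, Thy1, Rgs5 and Pdpn, and 10 of 10 were found among the 14521 named genes of the mouse table. RNA was sequenced from whole tissue of 6 female littermate SKH-1E Hairless mice, a strain prone to skin tumours under ultraviolet light. Each mouse had been irradiated chronically with a solar simulator that imitates sunlight, starting as a young adult, and was killed after a pause without irradiation. Each mouse (2, 3, 7, 8, 9 and 10) gave irradiated skin free of lesions (CHR), one papilloma (PAP), a benign epidermal tumour, and one carcinoma of squamous cells (SCC), so that 18 libraries fell into 3 groups of n = 6. The groups share strain, sex, litter and irradiation, and unirradiated skin was not analysed here, so CHR is a matched but sun-damaged control. Papillomas and carcinomas were of low or intermediate histological grade and, by the paper's estimate, consisted mostly of tumour cells. Tumour and stroma were sequenced together.

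Smooth muscle cells contract through filaments of smooth muscle actin and smooth muscle myosin heavy chain, regulated by calponin and transgelin. In healthy skin these proteins mark the arrector pili muscles and the walls of arteries and veins. Fibroblasts at a wound or around a tumour can switch on part of this programme and are then called myofibroblasts, in which smooth muscle actin is the best known marker and smooth muscle myosin is usually low. Pericytes wrap the capillaries and depend on platelet-derived growth factor (PDGF) signalling through the receptor PDGFRB. Most dermal fibroblasts carry the related receptor PDGFRA, and fibroblast activation protein and podoplanin are used as markers of fibroblasts in remodelled tissue.

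Levels are given as normalised counts, that is, reads per gene divided by the scaling factor of the library, recovered from the deposited values. Depth was 15.4 to 21.0 M reads per library with a median of 18.9 M, so even Cnn1, the member with the fewest reads, was counted in every library. Differences are given on the log2 scale of the deposited value plus 1. That scale has a floor of 39 at 0 reads, so it understates the change of weakly expressed genes. A gene was called when the limma test, with the mouse as a block, gave an adjusted p under 0.05 over 14521 genes.

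A pair of libraries stood apart. The carcinoma of mouse 10 was the lowest SCC library for 10 of 10 members, and the papilloma of mouse 9 was the highest PAP library for 9 of 10, the exception being Myh11. The papilloma of mouse 10 was the lowest of its group for 9 of 10 members, Pdpn being the exception. The carcinoma of mouse 10 also had the lowest sum of 13 skeletal muscle genes among carcinomas, 461 normalised counts against a median of 113200, and the lowest sum of 17 dermal fibroblast genes, 33030 against a median of 277300. Its sum of 10 endothelial genes, 6575 normalised counts against a median of 7920, was also the lowest. Where leaving out the carcinoma of mouse 10 changed a member's call, turned its sign or moved its difference by over 1.5 times, both values are given.

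Of the regulatory sequence near the members, 5 of 10 genes had a window in the RefSeq promoter table (GRCm38.p6), namely Acta2, Cnn1, Pdgfra, Rgs5 and Pdpn. The 250 bases before each start were searched on both strands for the CArG box, the site bound by serum response factor (SRF), the transcription factor that drives contractile genes together with myocardin. An exact box was found in 1.47% of 32851 windows, and a box with at most 1 mismatch among its 6 A or T positions in 8.59%. Only the Acta2 window, among those of the 5 members, held a match, with 2 boxes of 1 mismatch each that began 84 and 34 bases before the RefSeq start. Both are shown in capitals with 10 bases on each side, on the minus strand at chr19:34255438-34255467 and chr19:34255388-34255417, and both fall in a first exon that GENCODE draws longer than RefSeq. The Cnn1 sequence on the plus strand at chr9:22099003-22099215, upstream of its first annotated exon, is shown for comparison because it codes for another contractile protein and held no match.
Acta2, outer box: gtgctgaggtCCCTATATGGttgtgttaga
Acta2, inner box: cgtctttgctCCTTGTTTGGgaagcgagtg
Cnn1, upstream: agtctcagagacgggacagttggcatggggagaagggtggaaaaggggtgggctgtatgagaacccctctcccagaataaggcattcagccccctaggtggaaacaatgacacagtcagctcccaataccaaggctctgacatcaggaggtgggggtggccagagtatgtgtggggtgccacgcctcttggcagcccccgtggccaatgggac
A match in these windows is a description of letters, not evidence that SRF was bound in these tissues.

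The members formed a V in most mice, high in CHR, low in PAP and intermediate or high again in SCC. In PAP vs CHR, 8 of 10 members were called lower, where 29.3% of all genes were, and 0 were called higher, where 23.3% of all genes were. No member was higher at an unadjusted limma p under 0.05 either, and limma-voom on recovered reads also called 0 higher. In SCC vs PAP, 8 of 10 were called higher against 8.75% of all genes, and 0 were called lower against 1.1% of all genes, again with 0 at an unadjusted p under 0.05 and 0 by limma-voom. In SCC vs CHR, 1 member was called higher against 15.8% of all genes and 2 were called lower against 22.7%. The members' median log2 difference was -1.59 for PAP vs CHR, 1.34 for SCC vs PAP and -0.17 for SCC vs CHR, while that of all genes stayed between -0.02 and 0.00143. These comparisons share their libraries, so the fall and the rise are not separate observations of the PAP samples. The members were chosen with earlier results of these data known, so setting them against all genes is a description, not a test. In whole tissue, fewer cells of a type and less RNA per cell cannot be told apart.

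**Figure D1:**
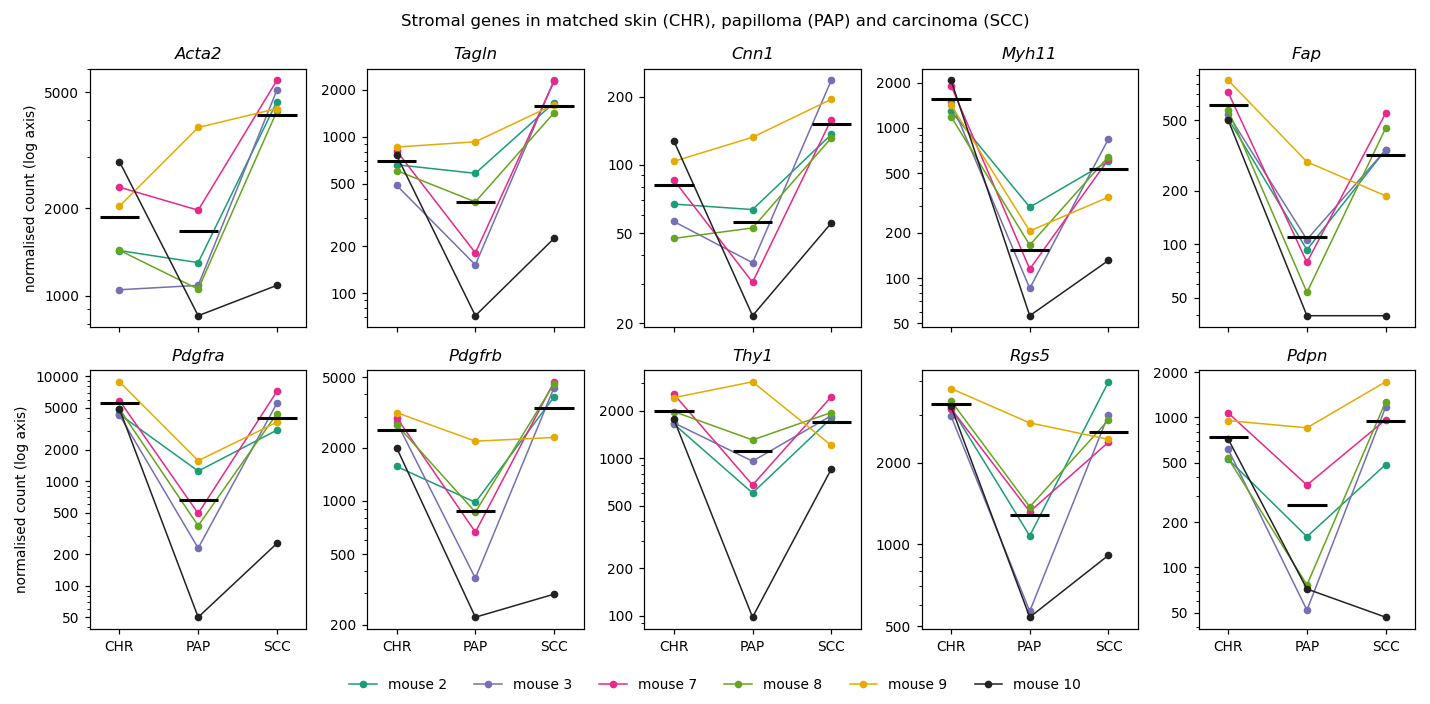
Normalised counts (log axis) of the 10 genes in CHR, PAP and SCC, with 1 coloured line per mouse and a black bar at the mean of each group of 6. Most lines dip at PAP, the black line of mouse 10 stays low at SCC in every panel, and Myh11 in PAP (56.3 to 297) lies entirely below CHR (1191 to 2073).

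Among the contractile genes, Acta2 encodes smooth muscle alpha-actin (chr19:34241090-34255590, GRCm38, minus strand). In CHR it ran from 1048 to 2888 normalised counts with a median of 1731, in PAP from 853 to 3784 with a median of 1192, and in SCC from 1085 to 5495 with a median of 4518. The CHR and PAP ranges overlapped almost completely. In SCC, 5 of 6 libraries lay above the highest PAP library, between 4305 and 5495, and the carcinoma of mouse 10 lay far below them. The difference was -0.26 ± 0.36 (SE) in PAP vs CHR (limma adjusted p = 0.571), 1.31 ± 0.36 in SCC vs PAP (0.0378) and 1.05 ± 0.36 in SCC vs CHR (0.0348). Acta2 was higher in SCC than in PAP in 6 of 6 mice and higher than in CHR in 5 of 6. It was the only member called higher in SCC vs CHR. That call was lost when any of mice 2, 3, 7, 8 or 9 was left out, and without the carcinoma of mouse 10 the difference was 1.39 (adjusted p = 0.00387).

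Tagln encodes transgelin, an actin-binding protein of smooth muscle (chr9:45929619-45936058, minus strand). Its levels were 489 to 858 normalised counts in CHR (median 710.2), 71.8 to 927 in PAP (median 282) and 224 to 2291 in SCC (median 1625). Papillomas therefore spread over a wider range than CHR on both sides, and 5 of 6 carcinomas, at 1421 to 2291, lay above all other libraries. Tagln fell by 1.06 ± 0.41 in PAP vs CHR (limma adjusted p = 0.0438), a call lost without the mouse block (0.0735) or without mouse 3, 7, 8 or 10, and rose by 1.92 ± 0.41 in SCC vs PAP (0.0156). In SCC vs CHR the difference of 0.86 ± 0.41 did not pass (0.112), but it was 1.18 with an adjusted p of 0.0291 without the carcinoma of mouse 10. Exons of Tagln share 62.4% of their bases with the antisense gene Gm48529 and 5.43% with Pcsk7 on the opposite strand, and since the strand setting of the counting is not given in the sources used here, reads of these genes cannot be told apart.

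Cnn1 encodes calponin 1, which restrains the actin-activated myosin ATPase (chr9:22099216-22109630, plus strand). It was the weakest contractile member, at 47.4 to 128 normalised counts in CHR (median 76.4), 21.6 to 132 in PAP (median 44.9) and 55.4 to 236 in SCC (median 147). All 3 ranges overlapped, and 5 of 6 carcinomas lay at 131 or above. The PAP vs CHR difference was -0.34 ± 0.22 (limma adjusted p = 0.209). Cnn1 rose by 0.89 ± 0.22 in SCC vs PAP (0.0252), in 6 of 6 mice. Against CHR the difference was 0.55 ± 0.22 (0.0627), and 0.71 without the carcinoma of mouse 10 (0.0204).

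Myh11 encodes the heavy chain of smooth muscle myosin (chr16:14194535-14291372, minus strand) and was low in both kinds of lesion. Its levels were 1191 to 2073 normalised counts in CHR (median 1451), 56.3 to 297 in PAP (median 141) and 131 to 844 in SCC (median 609). Neither lesion group overlapped CHR, and the mean was 10.1-fold lower in PAP and 2.94-fold lower in SCC. Myh11 fell by 2.93 ± 0.32 in PAP vs CHR (limma adjusted p = 9.83e-06) and by 1.56 ± 0.32 in SCC vs CHR (0.00236), each in 6 of 6 mice. From PAP to SCC it rose by 1.37 ± 0.32 (0.0207), in 6 of 6 mice. Of the 10 members it was the only one whose carcinomas all lay below all CHR libraries. The share of all genes with this pattern is not given here, and 22.7% of all genes were called lower in SCC vs CHR.

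Acta2 and Myh11 had similar read counts in CHR, while Acta2 reads exceeded Myh11 reads in the lesions. Reads here are not corrected for exon length, 2196 bases in Acta2 and 7599 in Myh11. Per kilobase of exon and per M reads, Acta2 already led in CHR, with means of 47.0 against 11.4. This pair was picked after the values were seen, so its ratio is a description without a test. Acta2 had 0.708 to 1.43 reads per read of Myh11 in CHR (median 1.22), 4.38 to 18.3 in PAP (median 13.9) and 6.02 to 12.7 in SCC (median 8.0). All 12 lesions lay above all 6 CHR libraries, the carcinoma of mouse 10 included, at 8.26. Tagln had 0.330 to 0.604 reads per read of Myh11 in CHR. It had 1.27 to 4.50 in PAP (median 1.87) and 1.70 to 4.63 in SCC (median 2.73). Lesions lay above CHR here too, but both ratios share Myh11, whose own counts already kept lesions and CHR apart. Acta2 against Tagln did not separate the groups, at 2.15 to 3.81 in CHR, 2.23 to 11.9 in PAP and 2.22 to 4.85 in SCC.

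**Figure D2:**
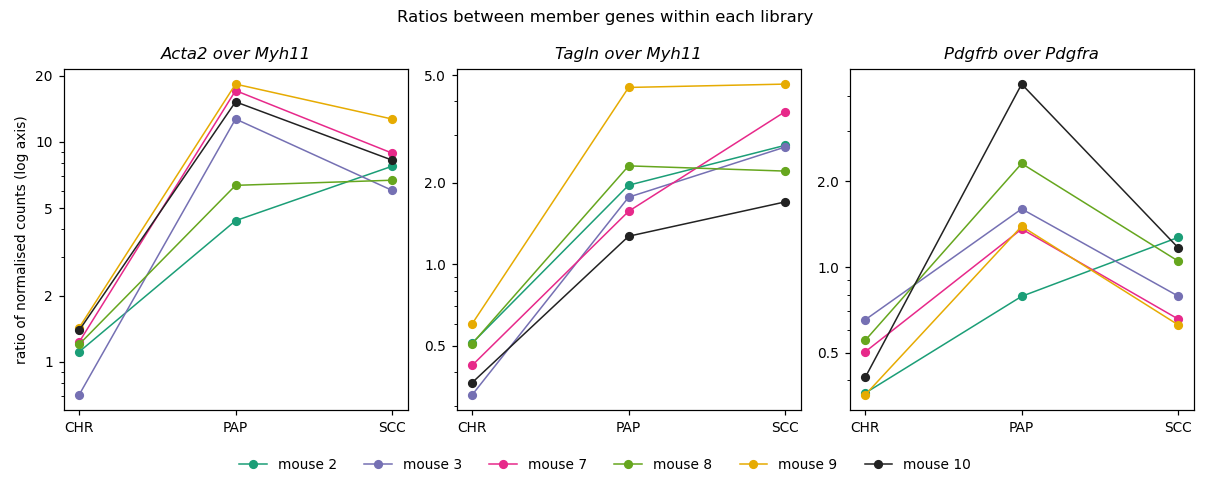
Ratios of normalised counts (log axis) within each library, with 1 line per mouse. Acta2 over Myh11 lies at or below 1.43 in CHR and at or above 4.38 in both lesion types, Tagln over Myh11 at or below 0.604 and at or above 1.27, and Pdgfrb over Pdgfra is highest in the papilloma of mouse 10, at 4.39.

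The other contractile genes of smooth muscle were read from a list of 20, of which 17 were measured. Counts of this and the following lists stand against the shares of all genes called. Those were 29.3% lower and 23.3% higher in PAP vs CHR. They were 1.1% lower and 8.75% higher in SCC vs PAP, and 22.7% lower and 15.8% higher in SCC vs CHR. In PAP vs CHR, 12 of 17 were called lower and 1 higher, with a median difference of -0.79. Those lower included Synpo2, which encodes synaptopodin 2 and fell by 2.89, from 849.6 ± 178 to 58.9 ± 24.5 normalised counts (mean ± SD). Synm, which encodes the intermediate filament protein synemin, fell by 2.85, and Mylk, the kinase that starts contraction by phosphorylating myosin light chain, fell by 1.72. Des, the muscle intermediate filament desmin, fell by 5.12, from 4378 ± 473 to 104 ± 166 normalised counts, but it is also made by skeletal muscle. Tpm1, a tropomyosin and the gene of the list with the highest counts, fell by 1.56. The sum of 13 skeletal muscle genes fell as well, from a median of 460600 in CHR to 817 in PAP. The part of skeletal muscle in the changes of this list, those of Synpo2, Synm, Mylk and Tpm1 included, was not tested in any comparison. The gene called higher was Smtn, which encodes smoothelin.

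Of the same list, 4 of 17 were called higher in SCC vs PAP, namely Des (3.62), Myl9 (1.38), Synpo2 (1.34) and the integrin subunit gene Itga8 (1.07), and 7 were without the carcinoma of mouse 10. Against CHR, carcinomas had 2 of 17 called higher and 7 lower. Actg2, the enteric smooth muscle actin and the closest relative of Acta2 on the list, rose from 66.3 ± 22.4 to 243 ± 95.6 normalised counts (log2 difference 1.2, limma adjusted p = 0.00187), in 6 of 6 mice. Smtn was the other gene called higher. Synm and Synpo2 were still 2.14 and 1.55 below CHR, and Lmod1, which nucleates actin filaments in smooth muscle, was 0.84 below.

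Among 10 measured genes of SRF, its cofactors and their common targets, Srf and Myocd went opposite ways. Srf rose from 963 ± 162 normalised counts in CHR to 1426 ± 224 in PAP (log2 difference 0.53, limma adjusted p = 0.00217) and was 1273 ± 178 in SCC (0.38 above CHR, 0.0225). Myocd, the myocardin cofactor restricted to muscle, fell from 27.4 ± 8.94 to 1.87 ± 1.59 in PAP (limma adjusted p = 0.000188) and was 10.3 ± 6.50 in SCC (0.0199 against CHR). It was at 0 reads in at least 1 papilloma. Cyr61, a target of SRF and of YAP, rose 0.82 in SCC vs CHR, while Flna, the list's most abundant gene, differed by 0.39 between PAP and CHR and by 0.43 between SCC and CHR without passing the test. Between PAP and SCC, limma called 0 of the 10, 2 had an unadjusted p under 0.05, and limma-voom called 2, as did limma without the carcinoma of mouse 10.

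Of the fibroblast members, Pdgfra encodes the PDGF receptor alpha (chr5:75152292-75198215, plus strand) and moved furthest. It ran from 4271 to 8864 normalised counts in CHR (median 4873), from 50.05 to 1564 in PAP (median 432) and from 253 to 7178 in SCC (median 4020). PAP did not overlap CHR, while carcinomas other than that of mouse 10 stood at 3062 or above and reached into the CHR range. Pdgfra fell by 3.38 ± 0.51 in PAP vs CHR (limma adjusted p = 0.000128) and rose by 2.52 ± 0.51 in SCC vs PAP (0.0137), both in 6 of 6 mice. Against CHR the carcinomas differed by -0.86 ± 0.51 (0.203), and by -0.45 without that of mouse 10 (0.475). Its exons share 4.55% of their bases with the antisense gene Gm42802 and less with 2 further entries of the annotation.

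Pdgfrb encodes the beta receptor, carried by pericytes and by many fibroblasts. Levels were 1566 to 3156 normalised counts in CHR (median 2744), 220.0 to 2176 in PAP (median 765) and 297 to 4713 in SCC (median 4124). The papilloma of mouse 9 reached into the CHR range, and 4 of 6 carcinomas, at 3874 to 4713, lay above all CHR libraries. Pdgfrb fell by 1.71 ± 0.45 in PAP vs CHR (limma adjusted p = 0.00608) and rose by 1.77 ± 0.45 in SCC vs PAP (0.027, or 0.0642 without the mouse block). Against CHR the difference was 0.06 ± 0.45 (0.927), and 0.46 without the carcinoma of mouse 10 (0.369). The ratio of Pdgfrb to Pdgfra was 0.356 to 0.653 in CHR, 0.789 to 4.39 in PAP and 0.627 to 1.27 in SCC. All papillomas therefore lay above all CHR libraries. The ratio is of reads not corrected for exon length, 5478 bases in Pdgfrb and 10024 in Pdgfra. It does not show which receptor was the more abundant.

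Fap encodes a surface protease of activated fibroblasts (chr2:62500943-62574075, minus strand). It ran from 501 to 840 normalised counts in CHR (median 555), from 39.6 to 292 in PAP (median 86.2) and from 39.6 to 548 in SCC (median 341). PAP lay entirely below CHR, and every carcinoma was below the CHR sample of its own mouse. It fell by 2.05 ± 0.32 in PAP vs CHR (limma adjusted p = 0.000148) and by 0.998 ± 0.32 in SCC vs CHR (0.0245). Without the carcinoma of mouse 10 the latter was -0.74 and was no longer called (0.0623). In SCC vs PAP the difference was 1.05 ± 0.32 (0.0532), higher in 4 of 6 mice and equal in mouse 10, and limma-voom called it (0.0369). Without the carcinoma of mouse 10 this difference was 1.3 and was called (limma adjusted p = 0.0108).

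Thy1 encodes the surface glycoprotein CD90 of fibroblasts, also carried by T cells and neurons (chr9:44043384-44048579, plus strand). It ran from 1649 to 2552 normalised counts in CHR (median 1875), from 97.9 to 3057 in PAP (median 817) and from 852 to 2458 in SCC (median 1828). PAP had both the lowest and the highest library of all 18, those of mice 10 and 9. Thy1 fell by 1.27 ± 0.40 in PAP vs CHR (limma adjusted p = 0.0172), in 5 of 6 mice, a call lost without mouse 7 or mouse 10. The differences of 0.98 ± 0.40 in SCC vs PAP (0.149) and -0.29 ± 0.40 in SCC vs CHR (0.592) did not pass.

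Rgs5 encodes a regulator of G protein signalling and is the classic pericyte marker (chr1:169655501-169695813, plus strand). In CHR it was the steadiest member, at 2968 to 3747 normalised counts (median 3203), with a coefficient of variation of 8.09%. In PAP it ran from 539 to 2800 (median 1197) and in SCC from 911 to 3967 (median 2652). The papillomas lay entirely below CHR, the highest of them, that of mouse 9, by a small margin. Rgs5 fell by 1.51 ± 0.29 in PAP vs CHR (limma adjusted p = 0.000746) and rose by 1.07 ± 0.29 in SCC vs PAP (0.0343, or 0.067 without the mouse block). Against CHR the carcinomas differed by -0.44 ± 0.29 (0.242), lower in 4 of 6 mice, and by -0.27 without that of mouse 10 (0.487).

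Pdpn encodes podoplanin, a mucin-like protein of lymphatic vessels, fibroblasts and some basal keratinocytes (chr4:143267431-143299564, minus strand). Its levels were 526 to 1071 normalised counts in CHR (median 664), 51.8 to 853 in PAP (median 118) and 46.5 to 1730 in SCC (median 1070). Papillomas had the largest relative spread of any member and group, a coefficient of variation of 119%, since those of mice 3, 8 and 10 held 51.8, 76.4 and 71.8 and that of mouse 9 lay within the CHR range. Pdpn fell by 1.68 ± 0.47 in PAP vs CHR (limma adjusted p = 0.00889), in 6 of 6 mice, and rose by 1.64 ± 0.47 in SCC vs PAP (0.0434, or 0.101 without the mouse block), in 5 of 6. The carcinoma of mouse 10 was the lowest of all 18 libraries. Against CHR the difference was -0.04 ± 0.47 (0.955), and without that library it was 0.43 (0.366).

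**Figure D3:**
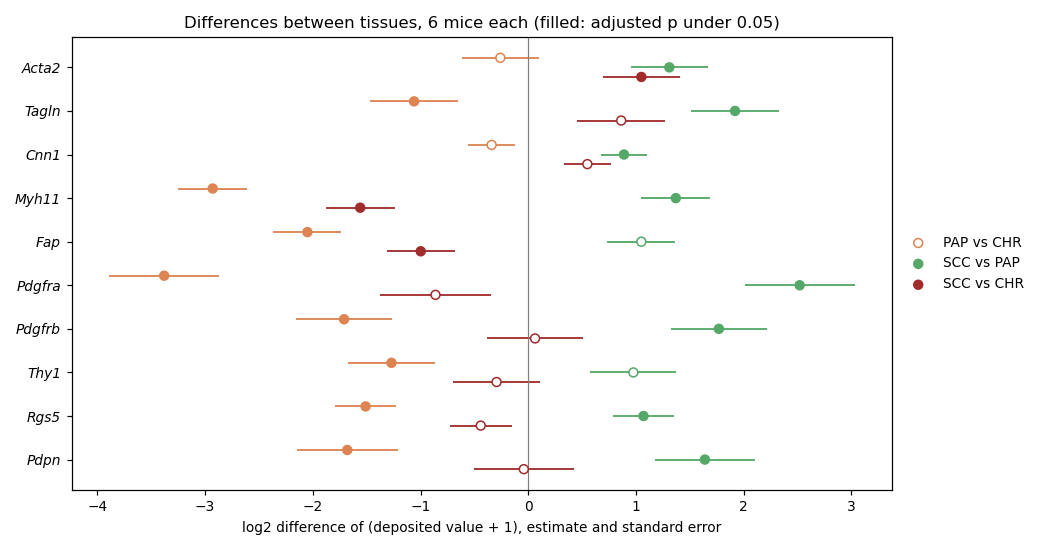
Log2 difference of the deposited value plus 1 for each member, with its standard error, in PAP vs CHR (orange), SCC vs PAP (green) and SCC vs CHR (dark red), 6 mice per group. Filled points passed an adjusted p under 0.05: 8 members fell to PAP, 8 rose from PAP to SCC, and between SCC and CHR Acta2 was higher with Myh11 and Fap lower.

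Not every part of this picture was equally stable. In PAP vs CHR, 4 of 10 members (Myh11, Fap, Pdgfra and Rgs5) had all papillomas below all CHR libraries, against 19.2% of all genes. Of the 10, 6 were lower in 6 of 6 mice, and the share of all genes with that pattern is not given here. This pattern gives the smallest p that an exact two-sided permutation of signs allows with 6 mice, 0.0312. That p is not adjusted for the 30 tests run. In SCC vs PAP, 4 of the 8 calls, those of Acta2, Pdgfrb, Rgs5 and Pdpn, were lost without the mouse block, and 0 of 10 passed when mouse 3, 7 or 8 was left out, although 9, 9 and 10 members kept an unadjusted limma p under 0.05. Without the carcinoma of mouse 10, 9 were called higher, and without the papilloma of mouse 9 as well, 10 were.

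Per kilobase of exon and per M reads, which allows genes to be set against each other, Acta2 had the highest mean level in each tissue. In CHR the order was Acta2 (47.0 ± 17.5, mean ± SD), Rgs5 (39.9 ± 3.61), Thy1 (37.1 ± 7.58), Pdgfra (30.5 ± 9.98), Pdgfrb (25.6 ± 6.42), Pdpn (22.4 ± 7.13), Tagln (19.4 ± 3.99), Myh11 (11.4 ± 2.58), Fap (6.0 ± 1.4) and Cnn1 (1.65 ± 0.622). Neighbours from Acta2 down to Tagln differed by less than the larger of their SDs, and those from Tagln down by more. In PAP no neighbours differed by more than their SD, with Acta2 (41.6 ± 25.9) first and Myh11 (1.14 ± 0.697), Cnn1 (1.13 ± 0.776) and Fap (1.08 ± 0.858) close together at the end. In SCC, Acta2 stood at 110 ± 42.2 and Tagln had moved from rank 7 to rank 2, at 45.9 ± 22.4. Pdgfrb (35.5 ± 18.7), Rgs5 (32.8 ± 12.1), Thy1 (32.7 ± 11.5) and Pdpn (30.3 ± 19.3) followed with no separation, and Pdgfra had moved from rank 4 to rank 7, at 23.3 ± 14.0.

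Most other perivascular genes were lower in papillomas. Of 17 measured mural cell and pericyte genes, 11 were called lower in PAP vs CHR and 2 higher, with a median of -1.03. Ebf1, a transcription factor of pericytes and fat cell precursors, fell by 2.40, and Abcc9, a subunit of the pericyte potassium channel, by 2.08. Anpep, an aminopeptidase of pericytes and fibroblasts, fell most, by 2.71. The genes called higher were Ndufa4l2 and Angpt2. Ndufa4l2, a pericyte gene that also responds to hypoxia, rose from 663 ± 276 to 4600 ± 2120 normalised counts (log2 difference 2.60, limma adjusted p = 0.000543).

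From PAP to SCC, 9 of the 17 were called higher. Among them were Ebf1 (1.5), Abcc9 (1.31), the transcription factor Tbx18 (1.28) and Angpt1, the ligand by which pericytes steady the endothelium (1.18). Compared with CHR, 3 of 17 were called higher in SCC and 5 lower, near the shares of all genes, 15.8% and 22.7%. Angpt2, which opposes Angpt1 at the receptor TIE2, was 208 ± 44.9 in CHR and 493 ± 121 in SCC (log2 difference 0.998, limma adjusted p = 0.00115), Ndufa4l2 was 1.29 above CHR, and the guanylyl cyclase subunit Gucy1a3, which relaxes vessel walls in response to nitric oxide, was 1.07 below.

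Ligands, receptors and regulators of PDGF and TGF-beta signalling were read from a list of 16, all measured. In PAP vs CHR 7 were called lower and 3 higher. Pdgfc, a ligand of the alpha receptor, fell by 1.29, and the receptor-like gene Pdgfrl by 1.58. Tgfbr3, the TGF-beta co-receptor betaglycan, fell by 2.09 and Tgfbr2, the ligand-binding receptor, by 1.16. From PAP to SCC 4 were called higher, namely the ligand Pdgfd (0.94), Pdgfrl (1.43), Tgfbr1 (0.52) and Ltbp2, a microfibril protein (2.19). Relative to CHR, 2 of 16 were called higher in SCC and 2 lower, no more than the shares of all genes, 15.8% and 22.7%. Smad7, the feedback inhibitor of TGF-beta signalling, was 0.54 higher and Ltbp1, which stores latent TGF-beta in the matrix, 0.75 higher. Tgfbr3 and Tgfbr2 were 1.19 and 0.64 lower.

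Fibroblast genes were read from a dermal and an activated list. Of 17 dermal fibroblast genes, 11 were called lower in PAP vs CHR, 8 higher in SCC vs PAP and 3 lower in SCC vs CHR. Those 3 were Dcn, the small proteoglycan decorin (18920 ± 4610 normalised counts in CHR, 565 ± 573 in PAP, 4317 ± 3000 in SCC), Dpt, which encodes dermatopontin, and Pi16, a marker of adventitial fibroblasts. Col3a1, the most abundant of the list, fell by 2.65 in PAP vs CHR, and its differences of 1.95 in SCC vs PAP and -0.71 in SCC vs CHR were not called. Prrx1, a mesenchymal transcription factor, rose by 1.76 in SCC vs PAP.

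Of 19 activated fibroblast genes, 7 were called lower and 3 higher in PAP vs CHR, 10 were called higher in SCC vs PAP, and 8 were called higher and 2 lower in SCC vs CHR. Col12a1, a collagen of stressed tissue and the most abundant of the list, was 23080 ± 9100 in CHR and 84360 ± 38700 in SCC (log2 difference 1.78, limma adjusted p = 0.000431). Tnc, the matrix protein tenascin C, was 1.90 above CHR and the ligand gene Wnt5a 1.75 above. Cxcl12, a chemokine gene of the same list, was 2.33 below CHR in SCC and 4.07 below in PAP. Cilp, a cartilage and dermis matrix protein, fell by 4.80 in PAP and rose by 3.48 from PAP to SCC. The rises from PAP to SCC depended on the fit, with 3 of 17 dermal and 3 of 19 activated genes called higher without the mouse block, and 12 of each list without the carcinoma of mouse 10. Whether the 2 fibroblast lists differ from each other was not tested.

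Podoplanin is shared by several cell types, so its partners and the markers of these cells were read from a list of 15, of which 14 were measured. In PAP vs CHR, 8 were called higher and 4 lower. The 8 comprised the keratinocyte genes Krt5, Krt14, Krt6a, Krt16 and Trp63 and the binding partners Ezr, Rdx and Cd44, and the 4 were the lymphatic genes Lyve1, Prox1, Flt4 and Reln. Without the papilloma of mouse 9, or without mouse 7, 9 or 10, only Lyve1 and Prox1 were called lower. Krt14 rose from 96550 ± 24200 to 327500 ± 85200 normalised counts (1.76) and Krt6a by 2.15, while Pdpn fell. Carcinomas had 7 higher and 2, Prox1 and Reln, lower than CHR, and 4 higher without that of mouse 10. The single call in SCC vs PAP was Krt5, lower by 0.88, and it was lost without the papilloma of mouse 9.

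**Figure D4:**
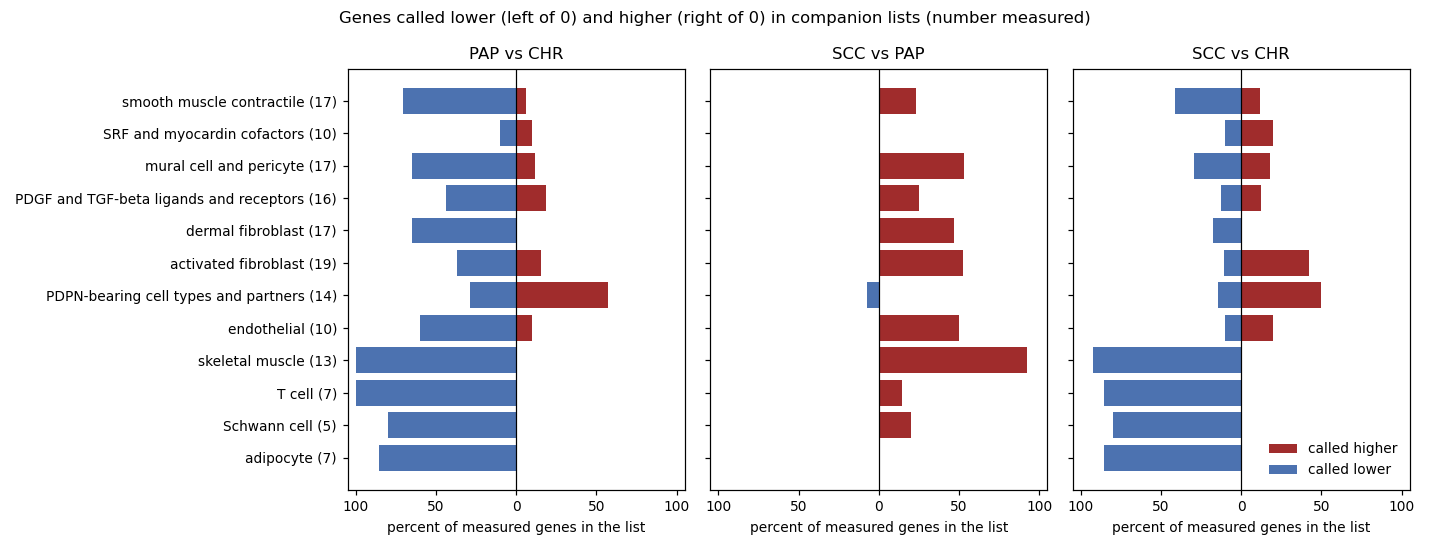
Percent of the measured genes of each companion list called lower (bars to the left) and higher (bars to the right) in the 3 comparisons, with the number measured in parentheses. In PAP vs CHR 13 of 13 skeletal muscle and 7 of 7 T cell genes were lower, and in SCC vs PAP 10 of 19 activated fibroblast genes were higher.

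Skeletal muscle genes and many endothelial genes moved with the members in both steps. Most adipocyte, T cell and Schwann cell genes were lower in PAP, and few were called higher from PAP to SCC. The summed level of 10 endothelial genes was 7461 to 10940 normalised counts in CHR, 4062 to 7067 in PAP and 6575 to 10710 in SCC. In PAP vs CHR 6 of 10 were called lower and 1, Emcn, higher, and 5 of 10 were called higher in SCC vs PAP. Against CHR, Cdh5 and Emcn were called higher in SCC and Tek lower. Pecam1, the endothelial adhesion molecule, fell by 0.96 and then rose by 0.87. The sum of 13 skeletal muscle genes was 395500 to 592200 in CHR, 376 to 29990 in PAP and 461 to 202400 in SCC, with Myh1 at 0 reads in some papillomas and Ckm, Myh1 and Myh2 at 0 in some carcinomas. All 13 were called lower in PAP vs CHR and 12 higher in SCC vs PAP. These genes mark striated muscle, which lies beneath the dermis of the mouse.

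Adipocyte genes were at 18040 to 32880 normalised counts in CHR, 1817 to 13160 in PAP and 3203 to 23340 in SCC, with 6 of 7 called lower in both lesions against CHR and Adipoq, Plin1, Lep and Cfd at 0 reads in some lesions of each type. T cell genes summed to 980 to 2096 in CHR, 142 to 509 in PAP and 360.2 to 1109 in SCC, with 7 of 7 and 6 of 7 called lower. Schwann cell genes summed to 2441 to 3944 in CHR, 1250 to 2170 in PAP and 1118 to 1793 in SCC, with 4 of 5 called lower in each lesion and S100b at 0 reads in some. From PAP to SCC, 1 of 7 T cell genes (Cd4) and 1 of 5 Schwann cell genes (Pmp22) were called higher, and limma called 0 of 7 adipocyte genes, of which 5 had an unadjusted p under 0.05 and 4 were called by limma-voom. The sums of the keratinocyte-rich podoplanin list went the other way, from 172200 to 299600 in CHR to 561800 to 1063000 in PAP. The part of these cell types in the members' results was not tested.

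Against the endothelial sum, which gives a rough scale for vessels, the members differed. Per 100 endothelial reads, Myh11 had 13.5 to 27.6 reads in CHR, 1.21 to 4.52 in PAP and 2.0 to 9.89 in SCC, so lesions and CHR did not overlap on this scale either. Rgs5 had 27.1 to 44.0 in CHR, 8.02 to 52.4 in PAP and 13.9 to 54.3 in SCC, and overlapped throughout. Acta2 had 9.58 to 38.4 in CHR and 15.4 to 70.8 in PAP. In SCC it had 16.5 to 63.6, and 5 of 6 carcinomas exceeded every CHR library. Pdgfra had 39 to 104 in CHR and 1.16 to 29.3 in PAP, which did not overlap. Per 100 reads of the dermal fibroblast list, Pdgfrb had 0.797 to 1.19 in CHR, 0.460 to 1.38 in PAP and 0.690 to 1.64 in SCC, and Pdgfra had 1.44 to 2.72, 0.222 to 1.75 and 0.545 to 2.17. These ratios were chosen after the values were seen and carry no test.

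Within the tissue groups the members varied together. After the group means were removed, Pearson's r over 18 libraries was above 0 in 45 of 45 pairs of members, from 0.516 to 0.953 with a median of 0.801, and with the mouse means removed as well the median was 0.758. These are descriptions, since the libraries share mice, and the carcinoma of mouse 10 and the papilloma of mouse 9 are extreme for most members. Tagln and Pdgfra were most alike (0.953), followed by the 2 PDGF receptors (0.937). Thy1 and Pdpn were least alike (0.516, and 0.13 with the mouse means removed).

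**Figure D5:**
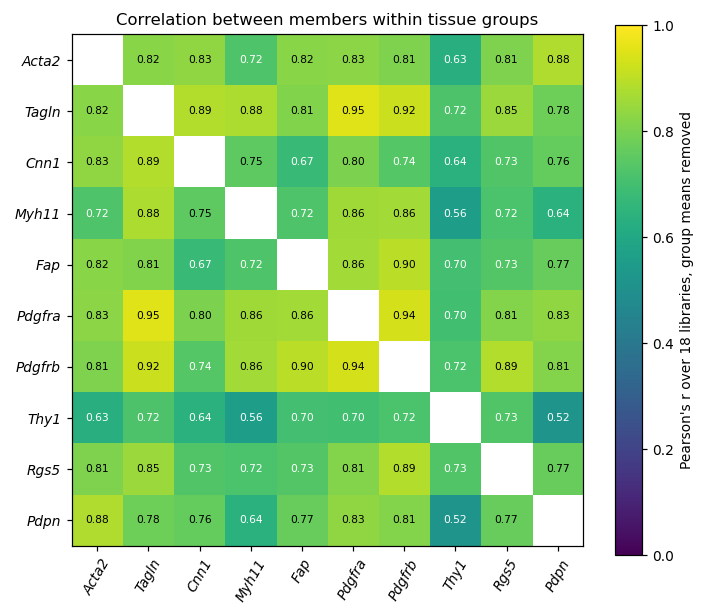
Pearson's r between members over 18 libraries after the mean of each tissue group was removed, with the colour scale from 0 to 1. The row of Thy1 holds the lowest values, down to 0.516 with Pdpn, and Tagln with Pdgfra the highest, 0.953.

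The genes most like each member by the same measure were sought among 12701 genes with a mean of at least 50 normalised counts. Tagln was closest to Sulf1, a sulfatase that trims heparan sulfate (r = 0.972), Fermt2, an integrin activator (0.966), and Myl9, a regulatory myosin light chain (0.965). Pdgfra was closest to Sulf1 (0.976), Prrx1 (0.975) and Gpr176 (0.969), and Pdgfrb to Bicc1 (0.972), Pcolce, which speeds collagen processing (0.968), and Cped1 (0.968). Myh11 was closest to Cpeb1 (0.937), Tln2 (0.919) and Eln, which encodes elastin (0.919), and Rgs5 to Srpx (0.931), Adamts12 (0.928) and Nynrin (0.923). Acta2 was closest to Naalad2 and Pla1a (0.906 each) and to Prkg1, the cyclic GMP-dependent kinase of smooth muscle (0.889). Pdpn was closest to another member, Acta2 (0.881), and Cnn1 was closest to Tmem98 (0.907), Nbea (0.889) and the member Tagln (0.885). Fap was closest to Sec16b (0.949), Zeb1 (0.939) and Uggt2 (0.928), and Thy1 to Fam198b (0.926), Pbxip1 (0.922) and Itm2c (0.920).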

How the data were processed

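RNA of whole skin or lesion tissue was sequenced as paired-end mRNA libraries. The authors aligned reads to mm10 with MOSAIK and counted them per gene with HTSeq (versions, annotation release and strand setting not given in the sources used here). They deposited a score, a variance-stabilised expression value on a linear scale, rounded, in which 0 reads appear as 39. Their methods also name a scaling of batch medians.

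Of 14542 entries, 21 named by a number (at most 0.236% of a library's total) were left out. The transformation was inverted with a zero level of 39.13, which gave whole reads, after rounding of the deposited values, for 98.9% of values and for 100% of those under 100. Size factors were 0.834 to 1.178. No libraries were copies, with at most 2.23% equal values in any of 153 pairs. The median depth was 18.9 M reads.

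Groups and mouse numbers came from the sample titles. Groups were compared on log2(value + 1) in 1 fit of all 18 libraries, with a coefficient for each group and the mouse as a block (limma 3.58.1 under R 4.3.3). Two-sided p-values of 14521 genes were adjusted by Benjamini-Hochberg, and 0.05 was the threshold. Same-numbered samples come from the same mouse. The correlation of their deviations from the group means was -0.245 to 0.507. Exact permutation tests were two-sided, and 14 of 30 reached the smallest p that 6 mice allow, 0.0312. Alternatives were no block, a random mouse effect, limma-voom on recovered reads, other scalings, pseudocounts and filters, and leaving out mice.

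Coordinates and exon lengths are from GENCODE M21. The members and gene lists were chosen with earlier results of these data known. Of each list, up to 4 called genes with the largest difference per comparison and the most abundant gene were eligible to be named with values. Genes named for likeness were the 3 with the highest group-centred r. Other genes are named only as called.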

Additional observations from a re-analysis of the deposited data

Results flagged for a closer look

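In 5 of 30 sets of 6 libraries (10 members in 3 groups), the lowest library lay further from the rest than Dixon's critical value for the gap divided by the range allows. Chance flags about 1 in 20 such sets, and the sets are not independent because they come from the same libraries. In each of the 5 the library was the carcinoma of mouse 10. It held 1085 normalised counts of Acta2 (gap 0.847 of the range), 224 of Tagln (0.779), 253 of Pdgfra (0.73), 297 of Pdgfrb (0.723) and 911 of Rgs5 (0.646). Its sums of dermal fibroblast, activated fibroblast and skeletal muscle genes, 33030, 56690 and 461 normalised counts, were also the lowest among carcinomas. Its mural cell and pericyte sum, 9831, was close to the group median of 9695. That sum did not follow most genes of its list. Its medians were 10220 in CHR and 10100 in PAP, although 11 of 17 genes were called lower in PAP vs CHR.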

How the results depend on the processing

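The counts of members called lower in PAP vs CHR stayed within 1.5 times the reported 8 under every alternative run. The other counts moved as follows, and the cause was not tested. In SCC vs PAP, 1430 genes were called in all, 810 without the mouse block, 709 when at least 10 reads were required in every library, 0 when limma was run on PAP and SCC alone (2242 higher and 588 lower at an unadjusted p under 0.05), and 0 to 2132 when mice or the libraries that stood apart were left out. It was 471 without mouse 3 and 0 without mouse 7 or mouse 8. Members called higher in SCC vs PAP numbered 8, but 4 without the block, 0 in the fit of those groups alone (9 at an unadjusted p under 0.05), 0 to 10 leaving out mice or those libraries, with 4 without mouse 2 and 0 without mouse 3, 7 or 8, and 9 by limma-voom. In SCC vs CHR the single member called higher became 2 with scaling to total reads or quantile normalisation, 0 with those groups alone (2 at an unadjusted p under 0.05), 0 to 3 leaving out mice, and 3 without the carcinoma of mouse 10, with or without the papilloma of mouse 9. The 2 called lower became 1 without that carcinoma and 1 to 2 leaving out mice, with 1 without mouse 9 or mouse 10. Leaving out these libraries was chosen after seeing the data. Dropping the pairing by mouse changed no other call of a member, apart from Tagln in PAP vs CHR. All companion lists had 0 calls in SCC vs PAP where no gene of the table was called. Quantile normalisation moved the median of all genes to 0.165 in PAP vs CHR, where the members' median was -1.59 before it. No called member changed sign. Low counts limit Cnn1, which had as few as 21.6 normalised counts.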
